A study of Mus musculus with 6 samples.

Results

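Retinoic acid is made from vitamin A inside the embryo, and the genes for its synthesis, its binding proteins and its receptors are described here in posterior tissue of mouse embryos with and without Fkbp8. The 9 genes are Rdh10 and Aldh1a2 (synthesis), Dhrs3 (the reverse of the first step), Crabp1 and Crabp2 (binding proteins), and Rara, Rarb, Rarg and Rxra (receptors). They were chosen by name, and a probe belonged to them when its symbol in the probe annotation or in the array file was 1 of the 9. These 9 of 18644 named genes had 11 of the 34967 gene probes on the array, with 2 probes each for Rarb and Rxra and 1 for each other gene. Tissue from just behind the forelimb bud at E9.5 was compared between 3 Fkbp8 mutant samples (replicates a, b and c) and 3 wildtype samples (replicates d, e and f), each on its own 1-colour CodeLink Mouse Whole Genome array. The embryos came from crosses of heterozygous parents. The labels do not describe the Fkbp8 allele or the strain, and the source label of mutant a is in the plural, so a pool of embryos cannot be told apart from 1 embryo there. The labels do not name separate litters or parents, so each p-value below reflects only how these 6 samples varied.

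In vertebrate embryos, retinol is oxidised to retinaldehyde, chiefly by RDH10, and retinaldehyde to retinoic acid, in the trunk by ALDH1A2. DHRS3 reduces retinaldehyde back to retinol. CRABP1 and CRABP2 carry retinoic acid in the cytoplasm, and CYP26 enzymes degrade it. Dimers of a retinoic acid receptor (RAR) and a retinoid X receptor (RXR) bind paired hexamers in DNA and switch target genes on when the ligand is present. In the trunk, retinoic acid from the somites acts on the neighbouring spinal cord and opposes FGF and WNT signals of the tailbud.

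Rarb is both a receptor and a textbook target, because its promoter holds a response element. The 250 bases before its RefSeq start (GRCm38.p6, chr14:16575477-16575726, minus strand) are shown because Rarb is the target gene among the 9. Capitals mark a direct repeat of 2 hexamers 5 bases apart, from base -53 to base -37 of the start.

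Rarb promoter: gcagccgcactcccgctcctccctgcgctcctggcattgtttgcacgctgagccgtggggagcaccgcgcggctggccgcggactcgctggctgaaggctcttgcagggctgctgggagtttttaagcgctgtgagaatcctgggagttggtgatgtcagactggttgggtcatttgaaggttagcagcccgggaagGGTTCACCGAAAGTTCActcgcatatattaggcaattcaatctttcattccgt

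The search covered both strands of the RefSeq windows (250 bases before to 50 after each start) for a pair of hexamers, the same or different, in 1 orientation and 5 bases apart. The hexamers were AGGTCA (the consensus word), also AGTTCA (the word on the right in Rarb), further GGGTCA (with G in first place) and lastly GGTTCA (the word on the left in Rarb). Such a repeat was in 32 of 32851 windows (0.0974%). Of the 9 genes, 7 had a window in that table (14 windows), and Rarb alone held the repeat. Rdh10 and Crabp2 had none in it. Among the other retinoid genes listed further on, Cyp26a1, which encodes a retinoic acid-degrading enzyme and is also a known target, held a repeat at GRCm38.p6 chr19:37697776-37697792, minus strand. Both elements are shown with the hexamers in capitals, since Rarb and Cyp26a1 were the genes among these in which a repeat with this spacing was found.

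Rarb response element: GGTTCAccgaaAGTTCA

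Cyp26a1 response element: AGTTCAcccaaAGTTCA

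A single hexamer was far more common, in 43.7% of all windows. With spacings of 1 and of 2 bases, 0.222% and 0.268% of windows held a repeat. These matches describe letters and not binding, and the windows are those of the gene starts that RefSeq gives.

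Between 57.6% (mutant c) and 61.8% of gene probes per array were above background, meaning that the scanner flagged the spot as good or saturated. Mutant c was the dimmest array, with a median raw intensity of 52.1 against 60.7 to 65.1 on the others and 21 saturated spots against 30 to 33. The Fkbp8 probe reached that level in every wildtype sample and no mutant, and it was at least 18.8-fold lower in mutants (limma adjusted p = 1.18e-07). Markers of the tailbud and posterior axis (T, Tbx6 and Cdx2) were above background on 3 of 3 arrays in each group. The Y-linked Eif2s3y, Ddx3y and Uty were above background in every mutant and no wildtype sample, and Xist the reverse, so genotype and sex-linked expression cannot be told apart for any gene below. Levels are given as log2 intensity after background correction and quantile normalization, and a difference is the mutant mean minus the wildtype mean on that scale. A difference was called when its adjusted p in limma, over all 21688 probes tested, was under 0.05. In a mixed tissue, fewer cells of a type and less RNA per cell cannot be told apart.

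None of the 9 genes passed the test. Of their 11 probes, 10 were bright enough to be tested, at least 1 for every gene, and 0 of 10 had an adjusted p under 0.05 in limma (smallest 0.332, largest 0.898), where 0.12% of all probes did (0.0646% higher and 0.0553% lower in mutants). The differences had no shared direction, with 5 of 10 probes positive, against 52.4% of all probes. Their median was -0.01, against 0.01 over all probes tested. Without regard to sign, the median difference was 0.11, against 0.09 over all probes tested. At an unadjusted p under 0.05 there were 3 of 10 probes, against 12.2% of all probes. Rdh10 was the 1 that was higher (6.43% of all probes), and Rarb and Aldh1a2 were the 2 that were lower (5.81%). For 4 of 10 probes, those 3 and Rxra GE1577298, the groups did not overlap, against 19.7% of all probes, with 2 higher (11.2%) and 2 lower (8.56%) in mutants. With 10 probes in all, these shares are a description. An exact two-sided permutation test of 3 against 3 cannot go below 0.1, the value that each of these 4 probes had.

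**Figure D1:**
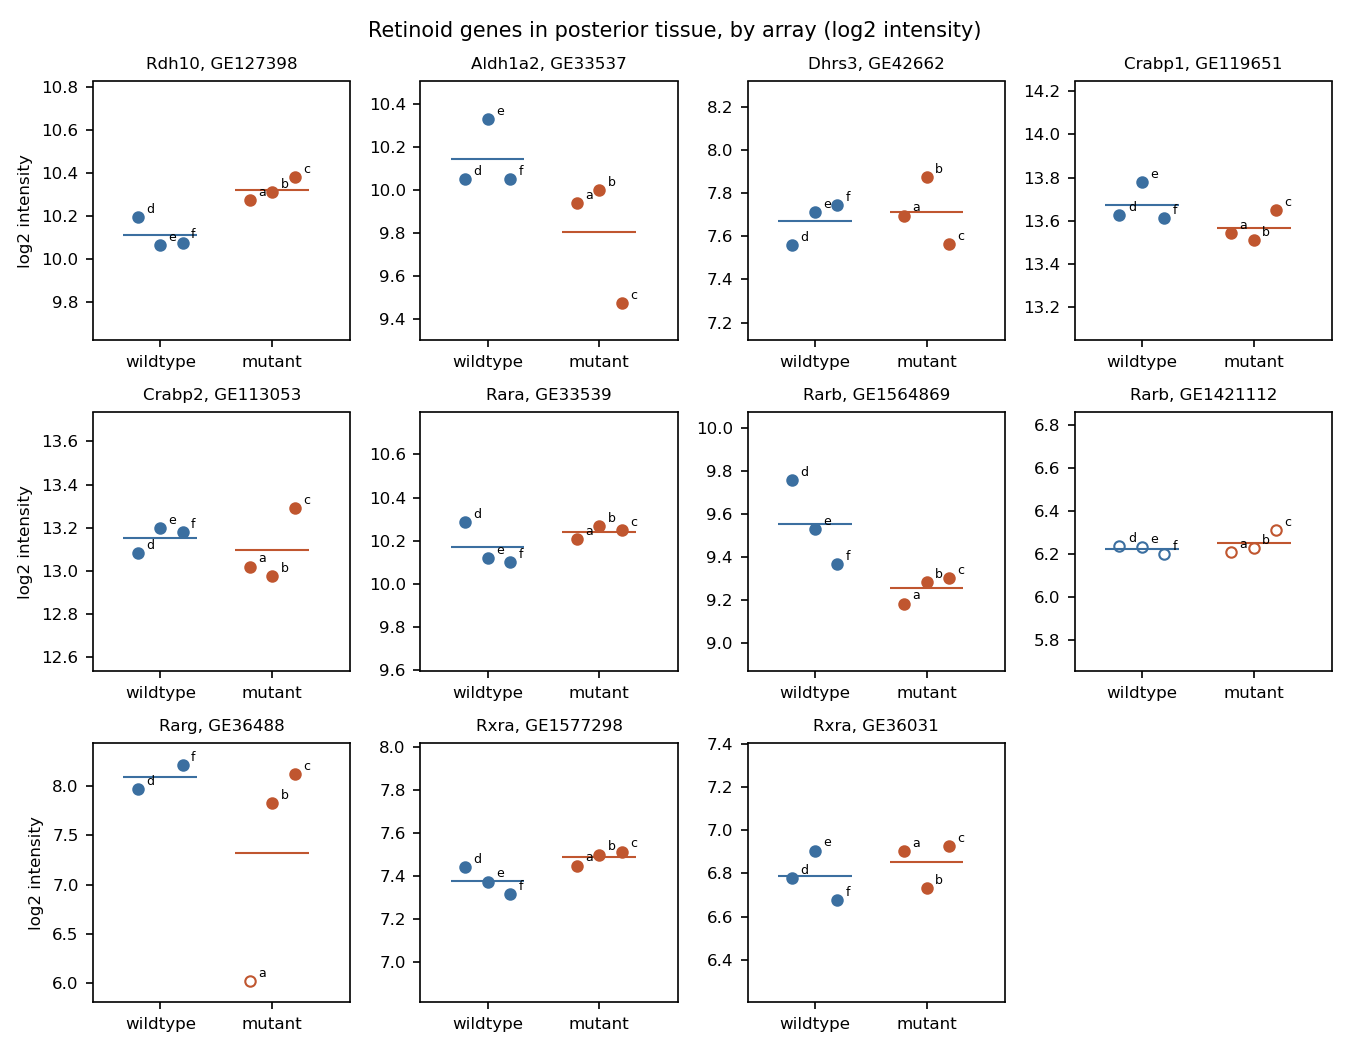
Log2 intensity of the 11 probes of the 9 retinoid genes in each array, wildtype in blue and mutant in orange, with the replicate letter beside each point, a bar at the group mean and open points where a probe was not above background. Each panel has its own axis. The mutant points of Rarb (GE1564869) and Aldh1a2 lie below all wildtype points, those of Rdh10 lie above, and the low mutant mean of Rarg comes from sample a.

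The genes of the 2 steps of synthesis had differences of opposite sign, and neither was called. Rdh10, the retinol dehydrogenase of the first step, had log2 intensities of 10.27, 10.31 and 10.38 in mutants a, b and c and of 10.19, 10.07 and 10.08 in wildtypes d, e and f. Every mutant was higher than every wildtype sample, by a narrow margin between mutant a and wildtype d. The mean was 10.32 ± 0.05 (SD, n = 3) in mutants and 10.11 ± 0.07 (SD, n = 3) in wildtype, a difference of 0.21 (SE 0.08, 95% confidence interval 0.03 to 0.38, limma adjusted p = 0.342), or 1.16-fold. Rdh10 stayed positive in all 18 alternative settings, with differences of 0.18 to 0.27.

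Aldh1a2, the retinaldehyde dehydrogenase that makes the retinoic acid of the trunk, had log2 intensities of 9.94, 9.9997 and 9.48 in mutants a, b and c and of 10.05, 10.33 and 10.05 in wildtypes d, e and f. The groups did not overlap, but mutants a and b lay just under wildtypes d and f, and most of the gap came from the low mutant c and the high wildtype e. The means of 9.80 ± 0.29 (SD, n = 3) and 10.14 ± 0.16 (SD, n = 3) differed by -0.34 (SE 0.15, 95% confidence interval -0.67 to -0.01, limma adjusted p = 0.40). Mutant c was also the dimmest array, and its part in the result was not tested. Without mutant c the difference was -0.17 (adjusted p = 0.518), and without wildtype e it was -0.24 (adjusted p = 0.647).

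Aldh1a2 is made in somites and lateral plate mesoderm, so the marker lists of these tissues are given beside it. The summed intensity of 12 somite and presomitic mesoderm markers was 9447 to 11782 in mutants and 9446 to 10783 in wildtype. The 10 lateral plate and limb field markers summed to 5346 to 5892 in mutants and 5530 to 6036 in wildtype. Both ranges overlapped between the groups. All 13 genes of the somite list and 10 of 11 of the lateral plate list were tested, 0 were called, and Hand2 was too dim. Sclerotome gene Pax1 had the smallest p of the somite list, with a difference of 0.37 (SE 0.08, limma adjusted p = 0.188).

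Dhrs3, the retinaldehyde reductase, had log2 intensities of 7.70, 7.87 and 7.56 in mutants and 7.56, 7.71 and 7.74 in wildtype. The groups overlapped fully, and the difference of 0.04 (SE 0.10, 95% confidence interval -0.19 to 0.27, limma adjusted p = 0.898) was smaller than the spread within either group. Its sign turned when mutant b (-0.04) or wildtype d (-0.02) was left out.

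The binding proteins Crabp1 and Crabp2 were flagged good on all 6 arrays, saturated on none, and their groups overlapped. Crabp1 had log2 intensities of 13.54, 13.51 and 13.65 in mutants and 13.63, 13.78 and 13.61 in wildtype. Mutant c lay inside the wildtype range, and the difference was -0.10 (SE 0.08, 95% confidence interval -0.29 to 0.08, limma adjusted p = 0.631). It was -0.056 without wildtype e and -0.035 with median centring. For Crabp2 the values were 13.02, 12.98 and 13.29 in mutants and 13.08, 13.20 and 13.18 in wildtype. Here mutant c was the highest of all 6 samples and mutants a and b the lowest, so the difference of -0.06 (SE 0.10, 95% confidence interval -0.28 to 0.17, limma adjusted p = 0.842) averaged unlike samples. With median centring in place of quantile normalization the Crabp2 difference turned to 0.02.

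Crabp1 is known in the neural tube and migrating neural crest, and neural crest markers were low in the mutants. The 9 neural crest markers summed to 3205 to 3462 in mutants and 3551 to 3884 in wildtype, with no overlap. Of these markers, 8 of 9 had negative differences, against 47.6% of all probes. For 4 of 9 the groups did not overlap, against 19.7% of all probes. In limma 0 of the 9 were called. Some lists given further on also had sums without overlap. Vitamin A handling genes summed to 4242 to 4463 in mutants and 4585 to 4984 in wildtype. Receptor partners and coregulators summed to 12091 to 13599 in mutants and 11116 to 11652 in wildtype. Spinal cord progenitor genes summed to 2066 to 2196 and 2817 to 3219. Sox10, which marks crest cells, had -0.55 (SE 0.12, adjusted p = 0.181), and Erbb3, a receptor of crest-derived glia, -0.32 (SE 0.08, adjusted p = 0.239). The 9 neural tube markers summed to 5138 to 5485 in mutants and 5305 to 5857 in wildtype, and these ranges overlapped. Their differences went both ways (4 positive, 5 negative, 0 called in limma), and for 3 of 9 the groups did not overlap, against 19.7% of all probes. Sox2 was lower in every mutant (-0.50, SE 0.19, adjusted p = 0.356). Fabp7 (0.21, SE 0.09, adjusted p = 0.397) and Nes (0.16, SE 0.07, adjusted p = 0.424) were higher in every mutant. The part of these cells in the Crabp1 and Rarb values was not tested.

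**Figure D2:**
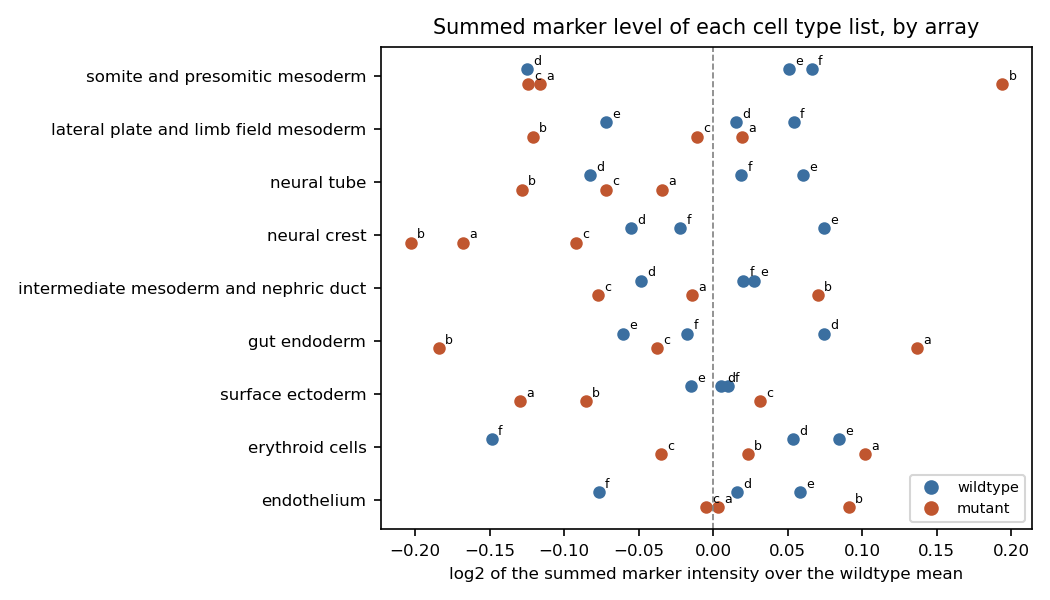
Summed intensity of the tested markers of 9 cell type lists in each array, as log2 of the ratio to the wildtype mean of that list, wildtype in blue and mutant in orange with replicate letters. The neural crest points of the 3 mutants lie left of all 3 wildtype points, whereas the somite and lateral plate points of the groups mix.

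Among the receptors, Rarb had the smallest p of the 9 genes. Its probe GE1564869 gave log2 intensities of 9.18, 9.29 and 9.30 in mutants a, b and c and of 9.76, 9.53 and 9.37 in wildtypes d, e and f. Mutants were close together and all lower, while the wildtype samples spread from a level just above them to a clearly higher one in d. The means of 9.26 ± 0.06 (SD, n = 3) and 9.55 ± 0.19 (SD, n = 3) differed by -0.29 (SE 0.11, 95% confidence interval -0.53 to -0.05, limma adjusted p = 0.332), or 1.23-fold lower. Ranked by p, this probe was number 1437 of 21688. The difference was negative in all 18 alternative settings (-0.38 to -0.19, adjusted p 0.264 to 0.553), and smallest in size without wildtype d. The deposited normalized intensities of this probe were 8.89, 9.18 and 9.05 in mutants and 13.0, 11.1 and 9.62 in wildtype.

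The other Rarb probe, GE1421112, was designed from an isoform that the array file calls receptor-beta 3. It was not above background on any of the 6 arrays (log2 intensity 6.20 to 6.31) and was not tested. The position of either probe in the transcript was not analysed here.

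Rara, the broadly expressed receptor, had log2 intensities of 10.21, 10.27 and 10.25 in mutants and 10.29, 10.12 and 10.10 in wildtype. The groups overlapped, with wildtype d the highest of all, and the difference was 0.07 (SE 0.08, 95% confidence interval -0.11 to 0.25, limma adjusted p = 0.738). Leaving out 1 array gave 0.04 (without wildtype f) to 0.13 (without wildtype d), and median centring gave 0.14. Rxra, the shared partner of the RARs, was measured by 2 probes whose differences had the same sign. GE1577298 gave 7.45, 7.50 and 7.51 in mutants and 7.44, 7.37 and 7.32 in wildtype, a difference of 0.11 (SE 0.07, 95% confidence interval -0.06 to 0.28, limma adjusted p = 0.567), with mutant a and wildtype d almost touching. GE36031 ranged from 6.73 to 6.93 in mutants and from 6.68 to 6.91 in wildtype, with a difference of 0.07 (SE 0.09, limma adjusted p = 0.798), and of 0.012 (without wildtype f) to 0.13 (without mutant b) when 1 array was left out. It was a dim probe, since the lowest log2 value above background was 6.37 to 6.47 per array.

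Rarg, the receptor prominent in the tailbud and presomitic mesoderm, could not be compared well. Its probe was above background in mutants b (7.83) and c (8.12) and in wildtypes d (7.97) and f (8.21), not above background in mutant a (6.02), and marked irregular and left out in wildtype e. The fitted difference of -0.77 (SE 0.54, 95% confidence interval -2.03 to 0.50, limma adjusted p = 0.597) used 5 of the 6 samples and rested on mutant a. Without mutant a it was -0.11 (SE 0.14, adjusted p = 0.766), while floored background subtraction gave -1.76 and the deposited table -1.77, also uncalled. Whether mutant a had little Rarg RNA or a poor spot was not tested.

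**Figure D3:**
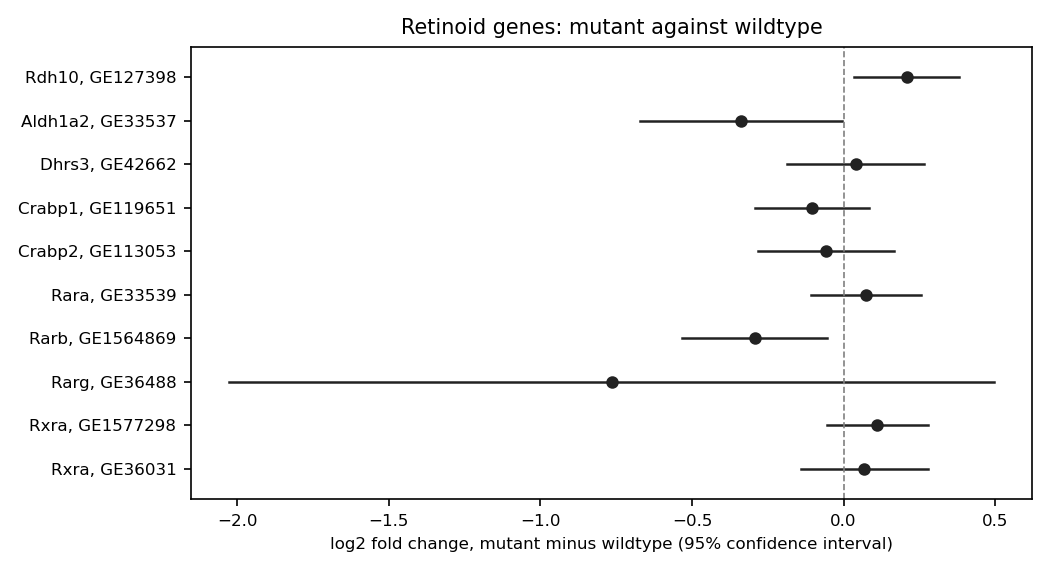
Difference in log2 intensity between mutant and wildtype (points) with its 95% confidence interval from limma (lines) for the 10 tested probes of the 9 retinoid genes. Intervals of Rdh10, Aldh1a2 and Rarb lie on 1 side of 0 before adjustment for multiple tests, the interval of Rarg is the widest, and no probe was called.

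The genes with values most like those of Aldh1a2 and Rarb are given as a description, being the highest of many correlations over only 6 shared arrays, with no test of whether they exceed chance. The probe values most like Aldh1a2 among 14759 named probes were those of Wdr95 (Pearson r = 0.989), Plpp1 (0.986) and Cks1b (0.984), and 130 probes had r over 0.9. For Rarb (GE1564869) they were Zfp595 (0.988), Svbp (0.987) and Naa35 (0.971), and 71 probes had r over 0.9.

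No other gene of synthesis or vitamin A handling was called. Of 15 listed genes 13 were on the array and 8 were tested, 0 were called, and the median difference was -0.04 (2 positive, 6 negative). Alcohol dehydrogenase Adh5 (-0.16, SE 0.08, limma adjusted p = 0.467) had the smallest p and was lower in every mutant. Rdh11, another retinol dehydrogenase, had -0.12 (SE 0.09, adjusted p = 0.616) and -0.22 (SE 0.12, adjusted p = 0.504) at its 2 probes, and Stra6, the membrane receptor that takes up retinol, had -0.11 (SE 0.10, adjusted p = 0.698). Among the retinaldehyde dehydrogenases, Aldh1a2 was above background on 6 of 6 arrays, Aldh1a3 on 3 of 6 and Aldh1a1 on 0 of 6. Probes of Rbp2, Lrat and Adh7 were not above background on any array.

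Cyp26a1 carries the response element shown above and is read here as the degradation step, since Cyp26b1 and Cyp26c1 were not analysed here. Its log2 intensities were 9.37, 9.03 and 9.31 in mutants and 9.18, 9.09 and 9.30 in wildtype. The mutants held both the highest and the lowest value, and the difference of 0.05 (SE 0.11, 95% confidence interval -0.20 to 0.29, limma adjusted p = 0.889) was positive, unlike that of Rarb. Whether Rarb and Cyp26a1 differed from each other was not tested.

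Genes known to be induced by retinoic acid showed no shared direction. Of 19 listed genes 16 were tested, 8 had positive and 8 negative differences, and the median was -0.01. In limma 0 were called and 2 of 16 had an unadjusted p under 0.05, against 12.2% of all probes. Hoxb3, a Hox gene of the hindbrain and anterior trunk, had -0.27 (SE 0.10, adjusted p = 0.342), and Meis2, a homeobox cofactor, 0.14 (SE 0.12, adjusted p = 0.666). Nr2f2, an orphan receptor gene with 3 probes, had -0.34 (SE 0.15, adjusted p = 0.415), -0.13 (SE 0.13) and -0.04 (SE 0.11).

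Cdx1, a caudal homeobox gene that answers to retinoic acid and WNT, was the gene of that list with the smallest p. At probe GE113178 it had log2 intensities of 8.56, 8.53 and 8.54 in mutants and 9.02, 8.76 and 9.29 in wildtype. At GE118685 the values were 6.94, 6.79 and 6.96 against 7.33, 7.31 and 7.59. Every mutant was lower than every wildtype sample at both probes. The differences of -0.48 (SE 0.12, limma adjusted p = 0.239) and -0.51 (SE 0.10, limma adjusted p = 0.157) did not pass over all probes.

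**Figure D4:**
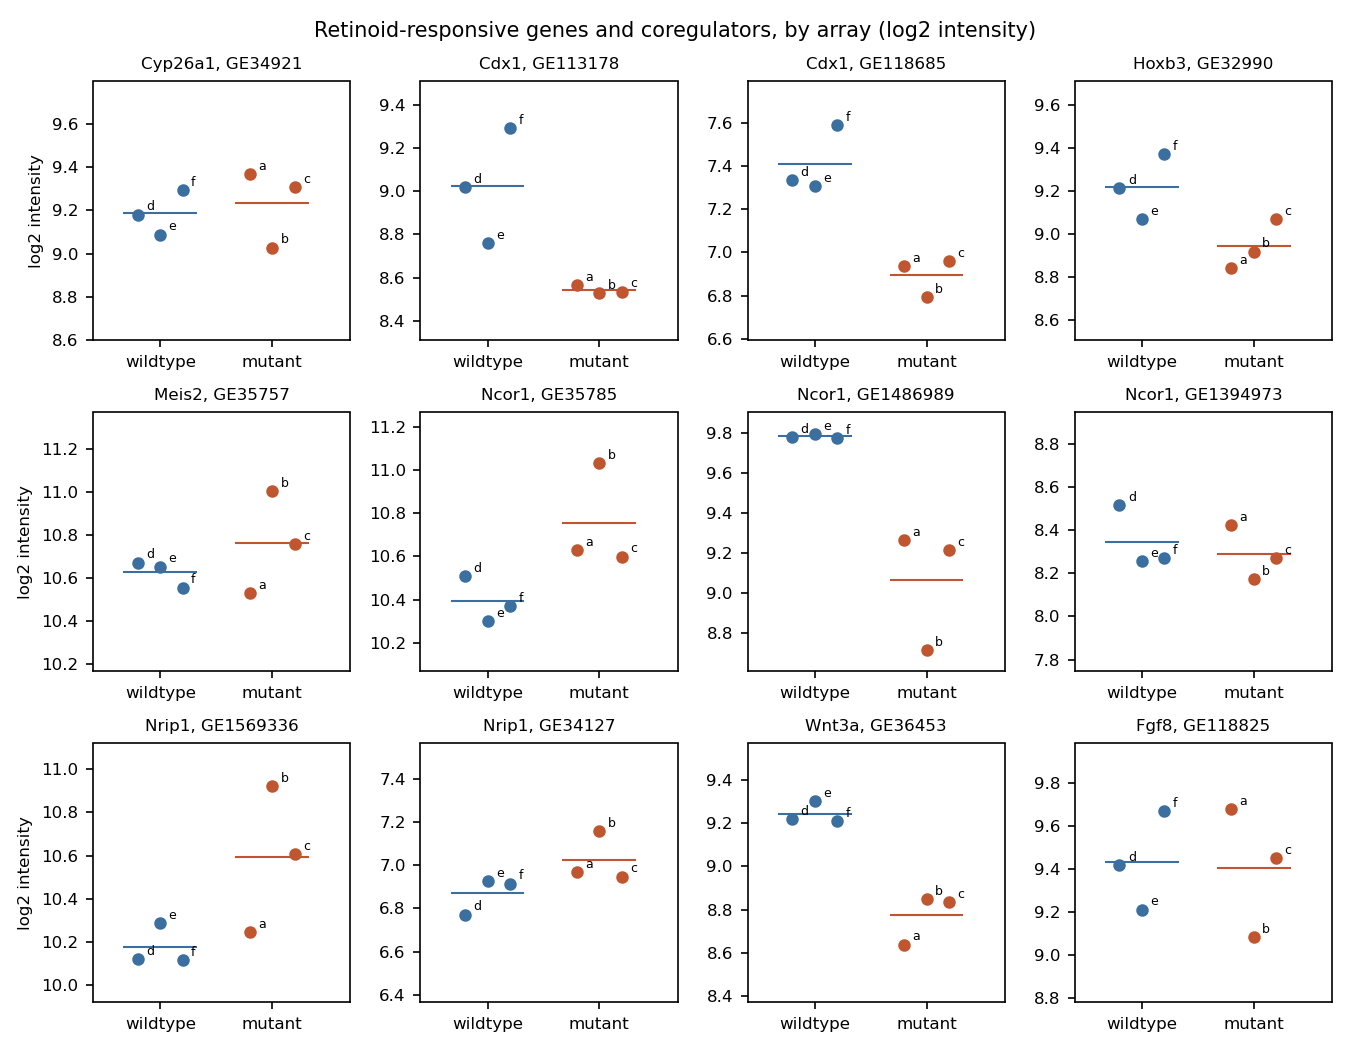
Log2 intensity of tested probes of retinoid-responsive genes (Cyp26a1, Cdx1, Hoxb3, Meis2), coregulators (Ncor1, Nrip1) and caudal ligands (Wnt3a, Fgf8) in each array, wildtype in blue and mutant in orange with replicate letters and a bar at the group mean. Each panel has its own axis. Both Cdx1 probes, Wnt3a and, by a narrow margin, the Nrip1 probe GE34127 separate the groups. The Ncor1 probes GE35785 and GE1486989 separate them in opposite directions.

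Receptor partners and coregulators gave 12 tested genes of 15, with 8 positive and 4 negative differences at the brightest probe of each and a median of 0.06. In limma 0 were called and 3 of 12 had an unadjusted p under 0.05, against 12.2% of all probes. The 3 and the 4 negative genes both include Ep300, which was tested only because it was above background in the wildtype samples. Ncor1, a corepressor that sits on RARs without ligand, had probes that disagreed. GE1486989 gave 9.27, 8.72 and 9.22 in mutants against 9.78, 9.79 and 9.77 in wildtype, a difference of -0.72 (SE 0.14, adjusted p = 0.157). GE35785 was higher in every mutant, with a difference of 0.36 (SE 0.12, adjusted p = 0.32), and GE1394973 had -0.06 (SE 0.10). A direction for Ncor1 therefore depends on the probe.

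Nrip1, a corepressor recruited by liganded receptors, had 0.42 (SE 0.15, limma adjusted p = 0.344) at its brighter probe, where mutants b (10.92) and c (10.61) lay above all wildtype samples (10.12 to 10.29) and mutant a (10.25) did not. At the dimmer one it had 0.15 (SE 0.09, adjusted p = 0.511) and was higher in every mutant, at 6.95 to 7.16 against 6.77 to 6.93. Ep300, an acetyltransferase and coactivator, had a dim probe, at 6.14 to 6.40 in mutants and 6.51 to 6.73 in wildtype. The lowest log2 value above background was 6.37 to 6.47 per array. Ep300 was above background in every wildtype sample and no mutant, so it met the filter of 3 arrays only through the wildtype samples. Its value of at least 1.15-fold lower in mutants (limma adjusted p = 0.239) is therefore only a description. Rxrb was left with 1 usable spot in each group (7.24 in mutant b and 7.97 in wildtype f) and was not tested.

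Spinal cord progenitor genes known to need retinoic acid were the list in which calls were made. All 8 listed genes were tested and 2 fell, Pax6 and Irx3, both transcription factors of the intermediate neural tube, with 3 of 8 differences positive and a median of -0.09. Over all probes 0.0553% were called lower, and the list was drawn up with the results of both genes known, so it is not independent evidence. Pax6 had log2 intensities of 7.65, 7.77 and 7.76 in mutants and 8.96, 8.96 and 8.70 in wildtype (-1.15, SE 0.09, limma adjusted p = 0.00287). Irx3 had 9.74, 9.82 and 9.75 against 10.40, 10.48 and 10.38 (-0.65, SE 0.07, limma adjusted p = 0.0178), and it was called in 0 of the 6 fits that left out 1 array. Neurog2, a proneural gene that retinoic acid also supports, had the opposite sign (0.33, SE 0.11, adjusted p = 0.29) and was higher in every mutant. Dbx1, a factor of interneuron progenitors, had a negative difference of -1.26 with a wide error (SE 0.25, adjusted p = 0.163).

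The caudal FGF and WNT genes that retinoic acid opposes had 12 of 13 tested members negative, against 47.6% of all probes, and a median of -0.10. In limma 0 were called and 3 had an unadjusted p under 0.05, against 12.2% of all probes. Fgf8, the tailbud ligand best known to be repressed by retinoic acid, had log2 intensities of 9.68, 9.08 and 9.45 in mutants and 9.42, 9.21 and 9.67 in wildtype. The groups overlapped fully, with a difference of -0.03 (SE 0.16, 95% confidence interval -0.40 to 0.34, limma adjusted p = 0.96). Wnt3a had -0.47 (SE 0.08, adjusted p = 0.137) and Wnt5a -0.46 (SE 0.16, adjusted p = 0.331). Fgf3 had -0.33 (SE 0.07, adjusted p = 0.192) at its brighter probe and -0.06 (SE 0.08, adjusted p = 0.808) at the other.

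**Figure D5:**
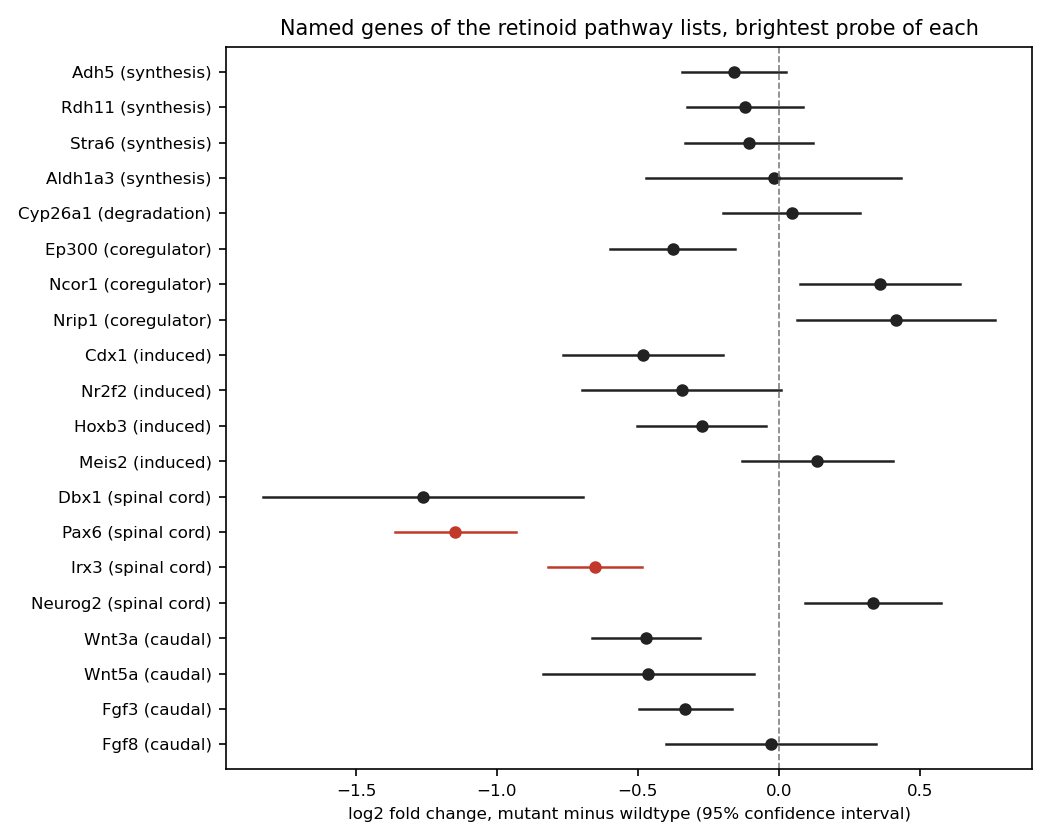
Difference in log2 intensity between mutant and wildtype (points) with its 95% confidence interval from limma (lines) for the brightest tested probe of each gene named here from the other retinoid lists, ordered by list and then by difference. Red marks an adjusted p under 0.05, which only Pax6 and Irx3 reached among the probes plotted, and the points of the 4 caudal genes lie left of 0.

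Markers of blood and of other cell types in the dissection are given for the same samples. Erythroid markers had positive differences for 11 of 11 tested genes, against 52.4% of all probes (median 0.29, 0 called in limma). At an unadjusted p under 0.05 there were 3 of 11, against 12.2% of all probes. Their summed intensity overlapped, at 76134 to 83738 in mutants and 70370 to 82712 in wildtype. That sum is linear and weighs the brightest globin probes most, such as the brighter Hbb-bh1 probe (log2 mean 15.07 in each group). Quantile normalization gives all arrays nearly the same top values, so the equal means of that probe are no result. The other Hbb-bh1 probe had means of 12.88 in mutants and 12.81 in wildtype. The sum says little about the dimmer erythroid markers. Heme synthesis gene Alas2 had the smallest p of that list (0.41, SE 0.12, adjusted p = 0.266). In each of the endothelial, gut endoderm, intermediate mesoderm and surface ectoderm lists the summed ranges overlapped and 0 genes were called. Of the yolk sac list only Afp and Ttr were bright enough to be tested, and their differences were -0.08 (SE 0.16) and 0.05 (SE 0.19). The part of these cell types in the retinoid values was not tested.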

How the data were processed

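The authors deposited 1 scanner table per array, in which CodeLink Expression Analysis 4.1.0.29054 gives spot and local background intensity, per the file headers. They also deposited a series table that equals the scanner's normalized intensity exactly and is linear. RefSeq names and sequences are of GRCm38.p6.

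Spot means were corrected by normexp (offset 50) against background medians, contaminated, irregular and masked spots (339 to 508 per array) were left out, and arrays were quantile-normalized on the log2 scale. The offset makes differences of dim probes smaller. Probes above background on at least 3 of 6 arrays with 2 usable spots per group were tested with limma 3.58.1 (lmFit, eBayes, two-sided, R 4.3.3), with Benjamini-Hochberg adjustment over 21688 probes. The fit was tested on simulated data. No fit with a batch as a block was made, since each slide held 1 array and the headers used here name no scan session.

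The named genes are the 9 members, Fkbp8, called genes of each list, otherwise up to 3 with the smallest p, genes fixed by name, and, for Aldh1a2 and Rarb, the 3 most correlated. The brightest probe stands for a gene in counts per list. Members and lists were chosen with earlier results of these data known, among them those of Pax6, Irx3, Cdx1 and Wnt3a, so these lists are no independent evidence. Some genes of these lists are counted but not reported here by name.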

Additional observations from a re-analysis of the deposited data

How the results depend on the processing

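In all 18 alternatives 0 probes of the 9 retinoid genes were called. The count over all probes, 26, was 13 with floored background-subtracted values, 16 with median centring, 15 with the deposited table, 16 with the filter on all 6 arrays, 14 without X and Y genes, and 5 to 16 leaving out 1 array. Of the other retinoid genes, Pax6 was called in every setting and Irx3 was not, so that count fell from 2 to 1 with floored values, with median centring, with the deposited table and in each fit without 1 array (1 to 1). Leaving out 1 array also gave 1 to 3 retinoid probes at an unadjusted p under 0.05 (8.07% to 13.4% of all probes in those fits) and 4 to 7 without overlap (27.3% to 32.4% of all probes), the 7 without mutant c. Signs turned for Dhrs3 (-0.041 to 0.11 leaving out 1 array) and Crabp2 (0.017 with median centring, and -0.15 to 0.0026 leaving out 1 array). Rarg could not be tested without wildtype d or f or with the filter on all 6 arrays, nor the dimmer Rxra probe with 1 probe per gene. Probes near background and the 3 arrays per group limit small differences. No paired analysis was made, since the labels state no pairing of mutant with wildtype samples.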
